A study of Drosophila melanogaster with 2 samples.

Results

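The regions described here are 529 binding sites of Bobby sox, the product of the fly gene bbx, that lie at promoters of genes with several start sites. They were taken from the 4753 conservative reproducible peaks of a chromatin immunoprecipitation and are 11.1% of them. A peak belonged if its summit lay within 500 bp of an annotated protein-coding transcription start site (TSS), if every such TSS was on 1 strand, and if the nearest of these TSSs belonged to a gene with at least 3 annotated TSS positions more than 1000 bp apart from end to end. Neither signal nor sequence was used in the choice. The 529 peaks belonged to 384 genes out of 903 protein-coding genes with that layout, or 42.5%. Close to the limits of the rule, the most distant summits inside were 490 bp from the TSS at PI31, 491 bp at CG2201 and 493 bp at ctrip, and the nearest ones outside were 508 bp away at chn, 520 bp at ph-p and 535 bp at CG31523. The shortest spans inside were 1009 bp at Hrs and 1044 bp at TER94, against 982 bp at CG9121 and 935 bp at Hrb27C outside.

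Transgenic Drosophila melanogaster carrying an insertion that expresses bbx fused to eGFP were the source of the material. Whole embryos aged 0 to 24 h were collected in 2 biological replicates of this 1 group, their chromatin was sonicated to 200 to 800 bp, and an anti-GFP antibody was used for the precipitation. Embryos of all those ages and tissues were mixed, so neither a stage nor a cell type can be assigned to a site, and no library from flies without the tag was analysed here. With 2 samples of 1 group no test over samples is possible, so all values below are descriptions. The depth of the libraries is unknown, because the files hold no read totals. Shares carry 95% Wilson intervals, which cover counting error over sites only.

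Many fly genes can start transcription at more than one promoter. The upstream promoter and those inside the gene can then differ in tissue, in stage and in the first exon they give the transcript, and in flies the promoters of broadly expressed genes are often built on short elements such as the DNA replication-related element (DRE), while many regulated promoters carry GAGA repeats. The bbx protein has an HMG box, a fold that binds the minor groove of DNA and is shared with the SOX and TCF factors. Here the TSS positions of each gene were numbered in the direction of transcription, as the first, the last and the inner ones between them. Positions of a gene separated by gaps of at most 500 bp were also joined into start-site groups, which gave 2904 groups in the 903 genes.

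Stretches of promoter sequence from the strongest sites of each class are shown because the first start sites of these genes and the later ones differed in the letters around them. Each runs from 160 bp before the TSS to 10 bp from it, 5′ to 3′ on the gene's own strand, read from the RefSeq genome of Release 6 (dm6). Capitals mark exact matches, on either strand, to the 10 short motifs counted further on, such as TATCGATA (DRE), its inner part CGATA, the recognition letters of the boundary protein BEAF-32, and GAGAG. Of the strongest candidates with a motif in this window, CkIalpha was passed over since the stretch held an annotated exon.
bun (first TSS, chr2L:12546602-12546771, minus strand): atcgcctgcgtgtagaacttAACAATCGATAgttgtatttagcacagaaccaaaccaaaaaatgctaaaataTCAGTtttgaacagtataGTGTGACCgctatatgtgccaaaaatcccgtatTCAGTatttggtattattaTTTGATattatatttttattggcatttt
Atpalpha (first TSS, chr3R:20948554-20948723, plus strand): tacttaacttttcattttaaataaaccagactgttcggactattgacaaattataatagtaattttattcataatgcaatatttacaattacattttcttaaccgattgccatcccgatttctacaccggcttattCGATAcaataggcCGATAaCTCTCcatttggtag
alph (first TSS, chr3R:29591671-29591840, plus strand): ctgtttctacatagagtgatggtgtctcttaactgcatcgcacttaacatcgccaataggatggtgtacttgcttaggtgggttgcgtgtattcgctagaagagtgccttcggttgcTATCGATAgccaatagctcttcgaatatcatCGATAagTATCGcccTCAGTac
milt (inner TSS, chr2L:7049112-7049281, plus strand): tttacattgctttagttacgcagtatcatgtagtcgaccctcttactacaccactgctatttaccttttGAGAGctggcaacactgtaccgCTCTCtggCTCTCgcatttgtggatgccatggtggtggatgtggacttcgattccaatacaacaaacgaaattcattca
CrebB (inner TSS, chrX:18370824-18370993, plus strand): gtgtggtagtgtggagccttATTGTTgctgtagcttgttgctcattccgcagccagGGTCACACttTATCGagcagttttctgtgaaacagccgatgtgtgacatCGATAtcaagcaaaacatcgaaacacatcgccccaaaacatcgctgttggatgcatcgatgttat
heph (inner TSS, chr3R:31985759-31985928, minus strand): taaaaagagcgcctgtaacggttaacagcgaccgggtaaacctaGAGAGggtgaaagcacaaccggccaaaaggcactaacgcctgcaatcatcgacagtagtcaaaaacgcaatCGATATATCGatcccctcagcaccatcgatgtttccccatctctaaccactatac
raskol (last TSS, chrX:17738253-17738422, plus strand): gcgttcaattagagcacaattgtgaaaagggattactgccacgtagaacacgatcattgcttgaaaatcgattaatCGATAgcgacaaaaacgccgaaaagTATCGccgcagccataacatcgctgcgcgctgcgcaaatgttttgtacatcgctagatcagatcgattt
PRL-1 (last TSS, chr2L:16251779-16251948, minus strand): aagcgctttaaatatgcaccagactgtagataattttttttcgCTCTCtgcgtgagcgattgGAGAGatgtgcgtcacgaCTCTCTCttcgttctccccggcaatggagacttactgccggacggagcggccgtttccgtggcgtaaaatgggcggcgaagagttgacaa
jigr1 (last TSS, chr3R:25648026-25648195, plus strand): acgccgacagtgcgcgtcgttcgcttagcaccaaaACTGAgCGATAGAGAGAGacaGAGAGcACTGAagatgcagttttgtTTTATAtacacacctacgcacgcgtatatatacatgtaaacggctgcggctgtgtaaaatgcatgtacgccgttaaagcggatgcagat

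The window of alph, which encodes a protein phosphatase of the PP2C family, held the complete DRE with its first base at -43, the TSS being +1, and further CGATA letters at -12 and -5. The start of Atpalpha, the gene for the catalytic subunit of the sodium pump, had CGATA at -24 and -11 and a GAGA match at -5. In bun, whose product is a transcription factor of the TSC22 family, the core of promoter motif 1 lay at -70. The inner start of milt, an adaptor that links mitochondria to kinesin, held 3 GAGA matches and no CGATA. The last start of PRL-1, which encodes a phosphatase, held 4 GAGA matches, and that of jigr1 held 3 and 1 CGATA. At PRL-1 the summit lay 80 bp downstream of the TSS, past the stretch shown, and the 4 matches were upstream of the peak. The windows did not divide by place: CrebB held the motif 1 core, 2 CGATA matches and no GAGA, heph held 2 CGATA and 1 GAGA match, and raskol held 2 CGATA matches and no GAGA. These matches are letters in a window and do not show what binds there.

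Peaks at these genes lay at the first start site far more often per site than at the later ones. By the nearest TSS position, 203 summits (38.4%, interval 34.3 to 42.6) were at the first position, 228 (43.1%) at an inner one and 98 (18.5%) at the last one, while the positions themselves divided into 25.8% first, 48.4% inner and 25.8% last. Counted over start-site groups and with any summit of the set within 500 bp, 348 of 898 first groups were occupied (38.8%, interval 35.6 to 42.0). The inner groups reached 176 of 1103 (15.96%, interval 13.9 to 18.2) and the last groups 129 of 898 (14.4%, interval 12.2 to 16.8). The intervals of the inner and last groups overlapped each other and neither reached that of the first groups. For reference, 22.6% of all 2904 groups were occupied, and so were 26.5% of the 17177 groups of all protein-coding genes.

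These counts include summits at places with TSSs on both strands, which the rule for the 529 sites leaves out. With the 529 sites alone, 16.9% of all groups carried a peak, the first groups 24.5% (interval 21.8 to 27.4), the inner groups 14.3% (12.4 to 16.5) and the last groups 12.2% (10.3 to 14.6). Over all genes together the first groups had the highest share with and without such places, with a smaller distance without them. With the 529 sites alone, genes with 5 or more groups had 18.6% at first and 18.6% at last groups. In genes with 3 groups the first (18.96 to 27.2) and inner (14.6 to 22.1) intervals then overlapped. Of the 5 genes whose positions all fell into 1 group, 4 had a summit.

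Counted with any summit, first groups and inner groups both had their lowest share in genes with 5 or more groups. The first intervals of genes with 2 and with 5 or more groups overlapped (36.4 to 48.6 and 24.9 to 42.9). Those of inner groups in genes with 3 and with 5 or more groups did not (17.1 to 25.1 and 8.30 to 14.4). In genes with 2 groups the first was occupied in 42.4% and the last in 17.6%. In genes with 3 groups the shares were 37.6% first, 20.8% inner and 11.3% last, in genes with 4 groups 39.5%, 16.3% and 14.3%, and in genes with 5 or more groups 33.3%, 11.0% and 18.6%. In the genes with 5 or more groups the intervals of inner and last groups overlapped (8.30 to 14.4 and 12.3 to 27.3).

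**Figure D1:**
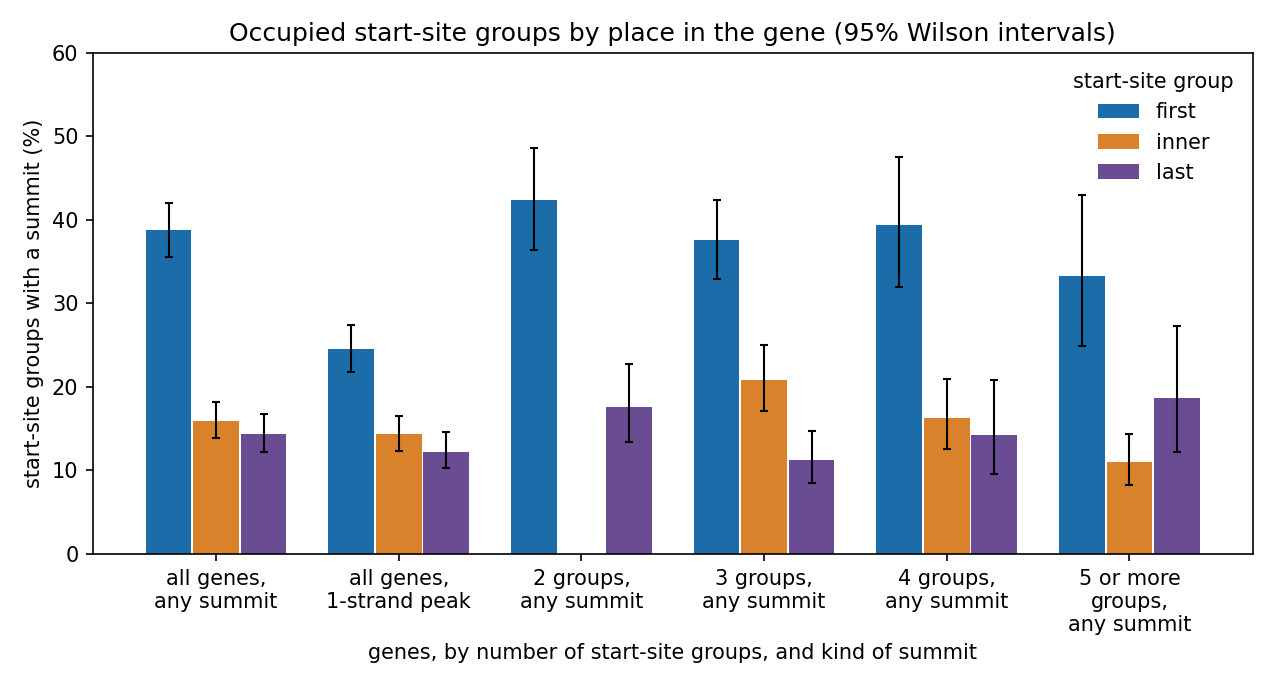
Percent of start-site groups with a summit (vertical axis) for first, inner and last groups, over all genes with several start sites and by the number of groups per gene; bars are shares and lines 95% Wilson intervals. First groups are occupied most often in every set plotted, for example 38.8% against 15.96% of inner and 14.4% of last groups over all genes.

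Groups that more annotated transcripts start from were occupied more often, and this moved together with the place in the gene. Of the groups with 1 transcript 15.02% had a summit, of those with 2 transcripts 23.9%, of those with 3 transcripts 32.4% and of those with 4 or more 42.0%. First groups started a mean of 3.11 transcripts where occupied and 2.40 where not, and inner groups 2.26 and 1.75. Within groups of 1 transcript, the first were occupied in 27.7%, the inner in 12.8% and the last in 9.53% of cases. Within groups of 4 or more the shares were 54.0% first, 26.8% inner and 28.9% last. With 2 and with 3 transcripts the first groups were highest too, at 35.3% and 50.4%, with 19.7% and 17.3% for inner and 15.9% and 24.5% for last groups. Annotated transcripts say nothing of how much each promoter was used in these embryos, which was not measured.

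At the level of whole genes, 493 of the 903 (54.6%) had at least 1 summit near a TSS, against 30.8% of all protein-coding genes, which have fewer start sites to be counted. In 233 genes with 2 or more groups the first group alone was occupied, in 115 the first and another, among them 24 with all groups occupied, and in 141 the first group was empty while a later one carried a summit. The other 409 genes of this kind had none. Genes with 1 of the 529 sites had a median of 4 TSS positions and a median span of 8655 bp, and the 519 without one a median of 3 and 5241 bp. The number of TSS positions ran from 3, as at Atpalpha, to 16 at Svil, whose product binds actin, and the longest span was 388255 bp at kirre, an adhesion protein of fusing muscle cells. In both the highest peak was at an inner start, with pooled signals of 91.4 at Svil and 67.1 at kirre.

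Peaks at first start sites were also the stronger ones. Signal is the authors' enrichment value of a peak, once for the pooled reads and once for each replicate, on a scale that the sources leave unstated. The pooled signal had a median of 120 at first positions, 93.9 at inner and 88.4 at last ones. The replicate columns, which carry no replicate number, gave 71.1, 57.8 and 53.8 in the first column and 56.8, 40.5 and 43.9 in the second. First positions were highest in both columns, while inner and last ones changed places between them.

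**Figure D2:**
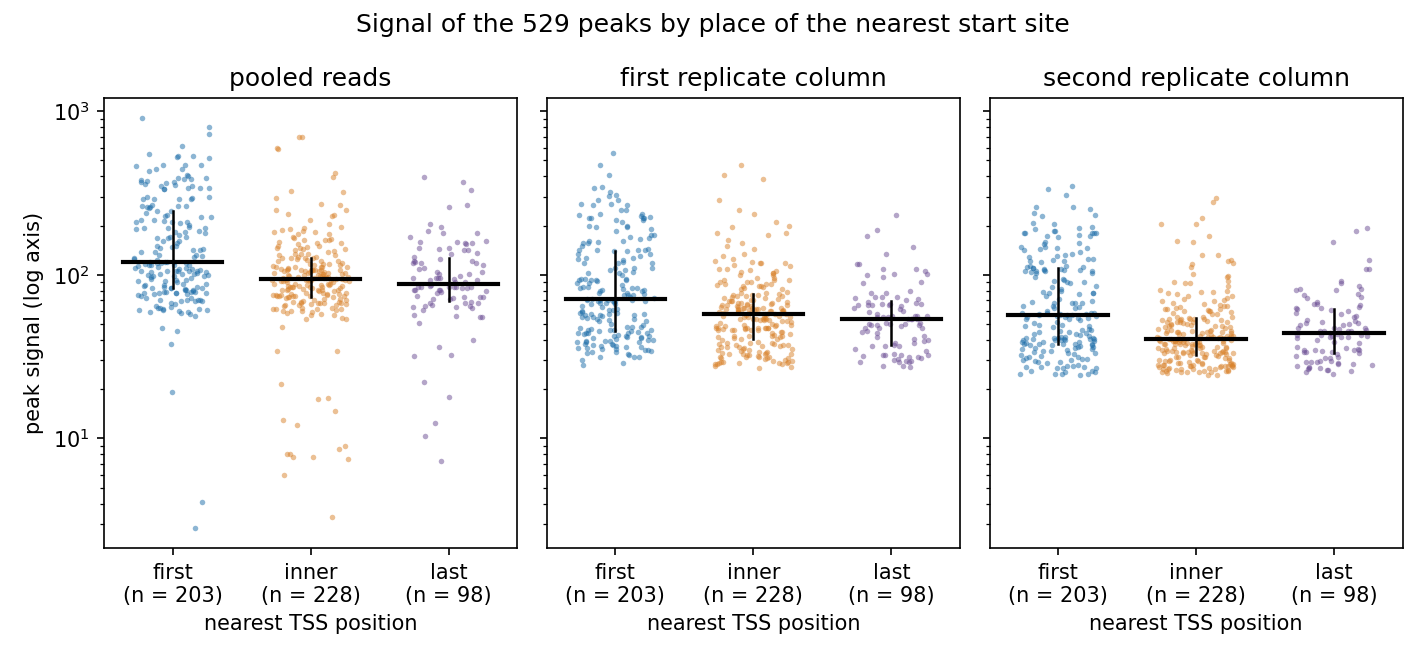
Signal of each of the 529 peaks (vertical log axis) at first, inner and last TSS positions, in the pooled reads and in each replicate column; points are peaks, thick lines medians and thin lines the middle 50%. The upper part of the range is filled mostly at first positions, with pooled medians of 120, 93.9 and 88.4.

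First positions made up more of the strongest peaks than of the weakest. Of the 132 peaks with the strongest signal, pooled values of 156 to 903, 82 were at first, 34 at inner and 16 at last positions. Of the 133 with the weakest, 33 were at first, 68 at inner and 32 at last positions. Among the top 50 the counts were 39, 8 and 3. Peaks at later starts were also found less often in the lists called from each replicate on its own: 66.0% of peaks at first positions overlapped a peak in both of these lists, against 47.4% at inner and 46.9% at last positions.

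The highest signal was at the first start of CG30015, with 903 in the pooled reads and 445 ± 158 in the replicates (SD, n = 2). The first start of bun followed with 801 and 410 ± 85.4 (SD, n = 2), and that of Gp150, which encodes a membrane protein with leucine-rich repeats, with 721 and 357 ± 71.7 (SD, n = 2). All of these peaks lay outside the annotated gene, upstream of the start.

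The strongest peaks at a later start were at the inner TSSs of milt (pooled 699, replicates 345 ± 174), CkIalpha, a kinase of Wnt and Hedgehog signalling (699, 343 ± 89.1), CrebB, a bZIP transcription factor (593, 295 ± 129), and heph, the polypyrimidine tract-binding splicing regulator (587, 292 ± 6.33; SD, n = 2 each). At milt and CrebB the replicates differed most, with 468 and 222 at milt and 386 and 204 at CrebB, and both values were far above the median of each column at all 529 sites, 59.6 and 44.7. The CkIalpha site is at the second of 5 positions that all fall into 1 group, and the CrebB site is at the later of the gene's 2 groups. At heph, CrebB, EcR, lola, pum and kirre the first group had no summit of any kind.

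The rest of the 15 strongest sites, with pooled signals from 470 to 615, were all at first starts. They were Atpalpha, alph, the topoisomerase gene Top1, TER94, which encodes the AAA ATPase p97, ReepB, which shapes the endoplasmic reticulum, CG30389, the adenylyl cyclase gene rut and Sox14, itself an HMG-box factor. Replicate means ran from 228 ± 6.97 at Sox14 to 302 ± 59.7 at Atpalpha (SD, n = 2).

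Among last start sites the highest signals were smaller. The RasGAP gene raskol had 395 (replicates 231 and 159), PRL-1 had 371 (188 and 185) and jigr1 330 (134 and 193). They were followed by spdi at 267 (147 and 122) and Mef2, the MADS-box factor of muscle differentiation, at 261 (172 and 91.3). All of these exceeded the median of first starts, and the next inner one after heph, the histone demethylase gene Utx, had 417 (210 and 203).

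The rule itself places every summit within 500 bp of a start site. Inside that limit most summits of each class lay within 100 bp of the nearest one, least often at last positions. The median offset was -26 bp at first, -11 bp at inner and -42.5 bp at last positions, where minus is upstream, and 70.4%, 65.4% and 54.1% lay within 100 bp. Of the summits at first positions 126 of 203 were outside the annotated gene, whereas those at inner and last positions were in introns (119 and 69) or exons (109 and 29) of transcripts, as a later start of a gene must be. The caller gave 426 of the 529 peaks the same width of 356 bp, with a median signal of 90.4, against 293 at the narrower ones. The fixed width was found at 64.0% of first, 90.4% of inner and 91.8% of last positions, and its part in the offsets was not tested.

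Where a gene had peaks of the 529 at more than one start-site group, the first was not regularly the strongest. Summits at places with TSSs on both strands are left out of these comparisons unless stated. Of the 384 genes, 289 carried their peaks at 1 group, 80 at 2 groups and 13 at 3 groups, and 2 had all positions in 1 group. Among the 93 with 2 or 3, the strongest peak was at the first group in 36, at an inner one in 34 and at the last in 23. The first group and another both had a summit of any kind in 115 genes, and both had 1 of these peaks in 67. Among the 67, the first group exceeded the strongest of the others in 36 (53.7%) and was below it in 31. The median log2 ratio was 0.22. The strongest of several other groups has more chances to be high than the single first one. The direction was the same in both replicate columns in 57 of the 67 genes. Within these 67 genes the first group was higher in 38 by the first replicate column and in 40 by the second. In the lists of the single replicates the share with the first group higher was 44.4% of 27 genes without replicate 1. Without replicate 2 it was 59.4% of 69 genes, so neither side was favoured in both lists. At an IDR of at most 0.001 the share was 42.3% of 26 genes, and with 4 or more TSS positions 63.2% of 38 genes. With TSSs on both strands allowed it was 59.3% of 91 genes.

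The spread between those genes was wide and leaned to the first group at the extremes. Differences over 2-fold favoured the first group in 19 genes and another in 7. Of the genes with these sites at a single group, 153 of 289 (52.9%) had it at the first, 75 at an inner and 61 at the last group. Groups whose only summit was at a place with TSSs on both strands count as empty here.

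**Figure D3:**
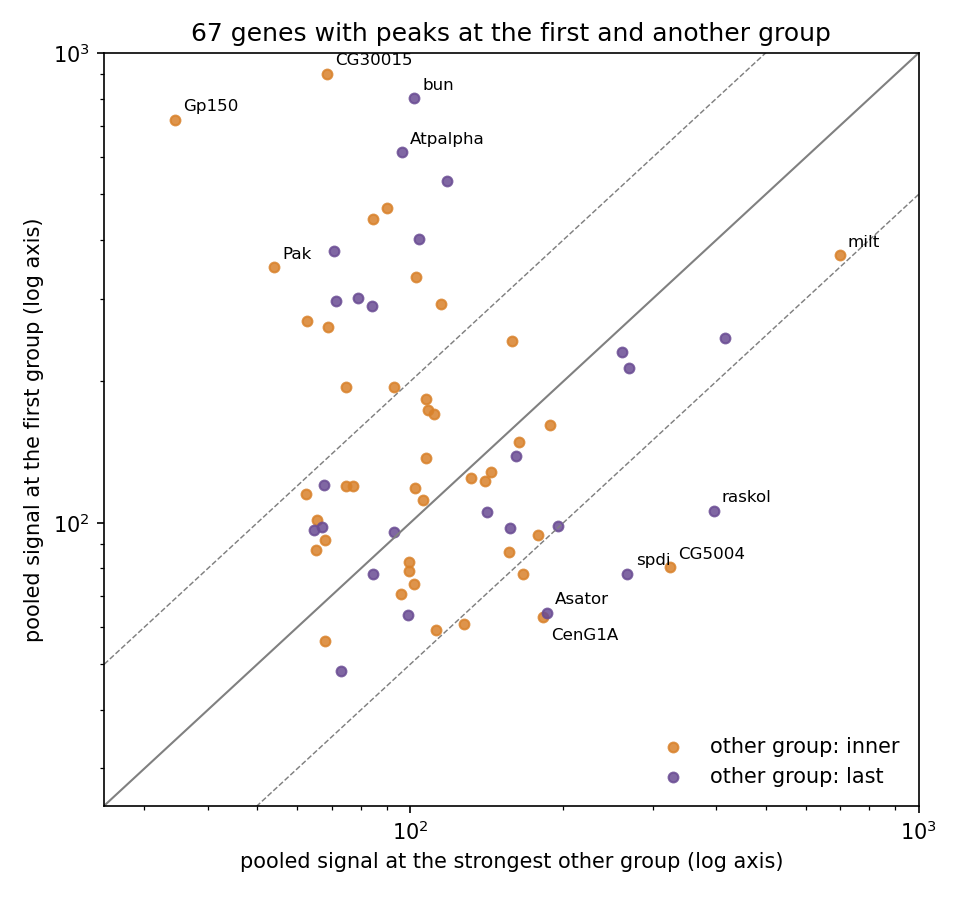
Pooled signal at the first start-site group (vertical log axis) against that at the strongest other group (horizontal log axis) of the same gene, for 67 genes; the solid line marks equal signal and the dashed lines 2-fold differences. Points far above the lines, such as Gp150 and CG30015, outnumber those far below them, such as raskol and CG5004, by 19 to 7.

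By pooled signal the first group exceeded the others most at Gp150, with 721 at its first start (408 and 307 in the replicates) and 34.5 at the second (37.7 and 29.5). CG30015 had 903 at the first (556 and 333) and 68.6 at group 3 of 4 (34.7 and 30.9). In both replicate columns the ratio was larger at CG30015 than at Gp150. At bun the values were 801 at the first and 102 at the last of 7 groups, 85355 bp downstream. Pak, a Rac-activated kinase, had 350 and 54.0, and Atpalpha 615 and 96.2. In each of these genes both replicate columns gave the higher value to the first start.

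The opposite pattern was seen most clearly at CG5004, with 80.4 at the first start (48.0 and 30.4 in the replicates) and 325 at the second (180 and 133). At raskol the first start had 106, the inner one 74.7 and the last 395. In spdi the first start had 77.9 and the last 267. In CenG1A, an ArfGAP gene, the values were 63.1 at the first and 182 at the inner start, and in Asator, a tau tubulin kinase gene, 64.3 at the first and 185 at the last. Both replicate columns pointed the same way in all of these genes. The log2 ratio of pooled signals over the 67 genes ran from -2.01 at CG5004 to 4.39 at Gp150.

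Genes with 3 occupied groups showed how far apart such sites can be. In milt the pooled signals were 371, 171 and 699 at the first 3 of its 4 groups, the third of them 11449 bp from the first. In larp, an RNA-binding La-related protein, they were 468, 90.0 and 76.6 at the first 3 of 5 groups. SNF4Agamma, the gamma subunit gene of the AMP-activated kinase, had 174 at its first group, 108 at the fifth and 96.6 at the eighth of 9. That eighth group lay 64189 bp from the first. ctrip, a ubiquitin ligase gene, had 97.7, 117 and 157 in the order of transcription. shot, the spectraplakin gene that links microtubules and actin, had 137, 107 and 86.4 at groups 1, 2 and 4 of 4.

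RapGAP1 and PAN3 had sites at 3 groups each, with none of the 529 at the first start. The values given are those of the strongest peak in a group, and each gene had 1 further peak overlapping another, with a pooled signal of 31.96 at RapGAP1 and 8.07 at PAN3. RapGAP1, whose product inactivates the GTPase Rap1, had 117, 64.5 and 114 at groups 2, 4 and 5 of 5. PAN3, a subunit of a deadenylase, had 70.7, 62.1 and 186 at groups 2, 4 and 5 of 5. In the 93 genes with several occupied groups the median of the greatest distance between occupied start sites was 9020 bp, and the farthest pair was 111762 bp apart.

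**Figure D4:**
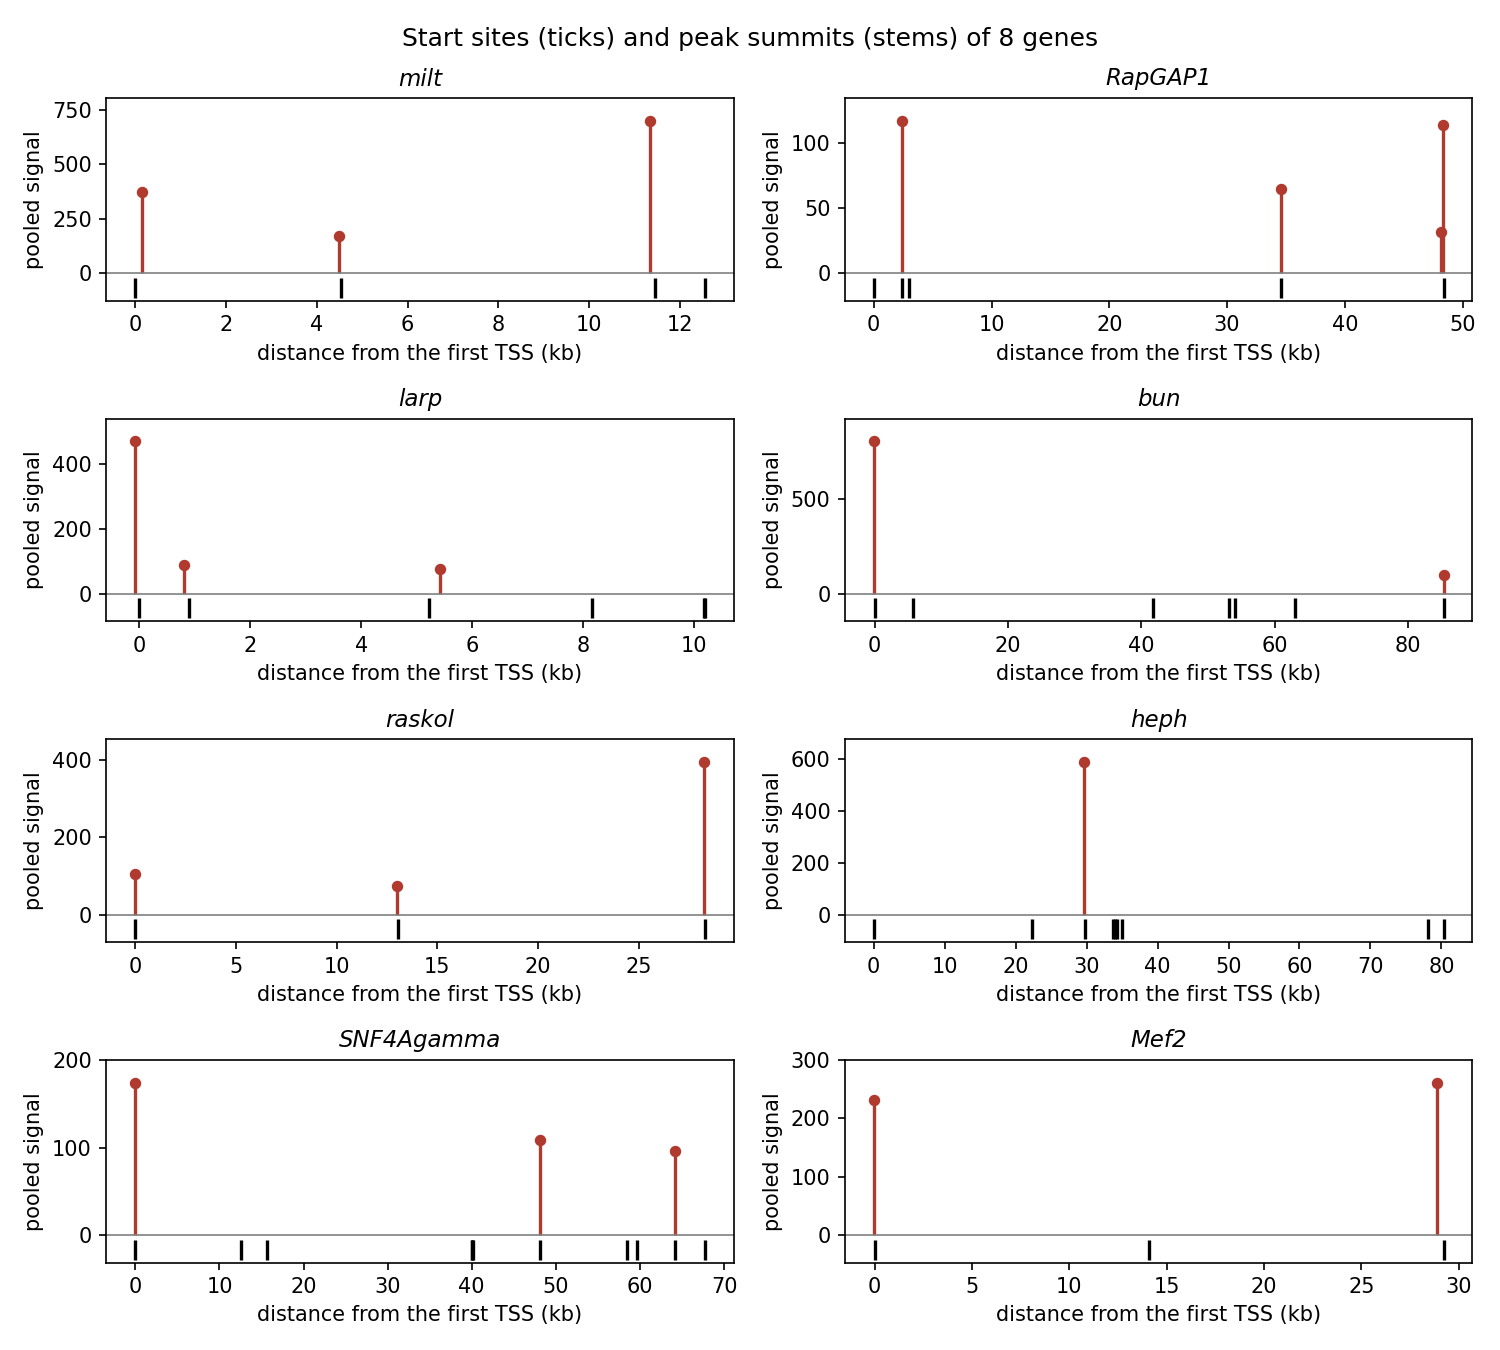
Start sites (black ticks) and summits of the peaks (red stems, height is pooled signal) by distance from the first TSS in kb, for 8 genes. In bun and larp the highest stem is at the first start, in milt and heph at an inner one and in raskol at the last one, and most ticks of SNF4Agamma and heph carry no stem.

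The tagged gene is itself one of these genes. bbx has 4 TSS positions on the X chromosome and 5 of the 529 peaks, at its first, second and last groups, with pooled signals of 79.0, 99.3 and 95.5 for the main peak of each. The replicates gave 39.9 ± 3.34, 48.2 ± 0.580 and 50.6 ± 7.61 (SD, n = 2). The other 2 overlap a main peak, repeat its replicate values and have pooled signals of 37.9 and 21.97. The tag came with a further copy of bbx sequence if the insertion carries the gene, and the part of such copies in these values was not tested. At 23 of the 529 sites, the first start of bbx among them, TSSs of 2 or more genes on the same strand lay within 500 bp. Without bbx 524 sites were left, with 38.4% at first positions.

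Some of the lowest values come from overlapping peaks. In all, 59 of the 529 peaks overlapped another peak of the set, and 48 shared both replicate values with another of the 529. In the pairs at PAN3, shot, pan and lola, 1 of the peaks had the lower pooled signal. Overlapping peaks made up 6.90% of the sites at first, 13.6% at inner and 14.3% at last positions. With overlapping peaks merged among the 529 sites, 501 were left, with median pooled signals of 120 at first, 96.8 at inner and 93.1 at last positions. Merging all peaks of the set before the rule was applied left 499. Of the 33 pooled values below 50 in the signal plot, 26 belong to overlapping peaks.

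The letters around the sites differed between first and later starts. Within 100 bp of the summit, TATCGATA was found at 10.2% of the 529 sites, at 19.7% of those at first positions (40 of 203, interval 14.8 to 25.7), 3.95% at inner (9 of 228, 2.09 to 7.33) and 5.10% at last ones (5 of 98, 2.20 to 11.4). It is the site of Dref, a factor of growth and replication genes. CGATA, which every DRE contains, was found at 43.7% in all, at 57.6% of first, 32.0% of inner and 41.8% of last positions. The core of promoter motif 1, GGTCACAC, stood at 9.85% of first, 2.63% of inner and 2.04% of last ones. In windows of the same 201 bp centred on all 19275 protein-coding TSS positions these motifs had shares of 6.44% (DRE), 37.1% (CGATA) and 5.68% (motif 1).

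GAGA letters showed the opposite order. GAGAG, the recognition letters of the GAGA factor, was found at 29.6% of first (interval 23.7 to 36.2), 49.1% of inner (42.7 to 55.6) and 42.9% of last positions (33.5 to 52.7), against 24.97% of all protein-coding TSSs. The initiator, TATA and E-box letters had overlapping intervals at first, inner and last positions. The initiator letters TCAGT were found at 33.0%, 41.7% and 37.8%, the TATA letters TATAAA at 17.7%, 14.5% and 12.2%, and the E-box CAGCTG at 15.8%, 16.7% and 15.3%. All protein-coding TSSs had 43.4% (initiator), 26.9% (TATA) and 13.4% (E-box). With windows centred on the nearest TSS the 529 sites had 43.1%, 14.9% and 15.5%, so TATA letters were less frequent at them.

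Counted over the 529 sites, letters recognised by HMG-box proteins were not above their share at all protein-coding TSSs. The Sox core AACAAT was found at 17.0% of the 529 sites, against 20.3% of all protein-coding TSSs, ACAAAG at 9.45% against 12.6%, and the TCF letters TTTGAT at 13.04% against 18.0%. By place, AACAAT had 19.7% at first, 16.2% at inner and 13.3% at last positions, with overlapping intervals. The windows of the 529 sites are centred on the summit and those of all TSSs on the TSS. With windows of the 529 sites centred on the nearest TSS too, the shares were 16.3% for AACAAT, 9.64% for ACAAAG, 12.5% for TTTGAT, 9.07% for the DRE and 40.1% for GAGAG. Between start-site groups, AACAAT was found at 19.3% of the occupied (interval 16.5 to 22.5) and 15.7% of the empty ones (14.3 to 17.3). Among first groups it was at 23.3% of the occupied (19.1 to 28.0) and 15.3% of the empty ones (12.5 to 18.5), and these intervals did not overlap. Inner groups had 15.3% when occupied and 14.9% when empty, and last groups 13.95% when occupied and 16.9% when empty.

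The start-site groups of the same genes without a summit give a second comparison, with windows centred on the TSS in both. DRE letters stood at 10.7% of the 657 occupied groups and at 0.935% of the 2247 empty ones. The difference was present among first groups (17.2% and 2.18%), inner groups (2.27% and 0.324%) and last groups (4.65% and 0.780%), though the inner share rests on 4 occupied and 3 empty groups and the intervals of 0.887 to 5.70% and 0.110 to 0.947% overlap slightly. CGATA was found at 45.2% of occupied and 27.5% of empty groups, and at inner ones alone at 29.5% and 27.7%.

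GAGA letters were found at 35.2% of occupied and at 35.2% of empty groups. By place, occupied first groups had 26.4% and empty ones 34.5%, inner groups 47.2% and 38.5%, and last groups 42.6% and 31.6%. The equal shares over all groups thus covered a lower share at occupied first groups and higher shares at occupied later ones. At each place, however, the intervals of occupied and empty groups overlapped. They were 22.1 to 31.3 and 30.7 to 38.6 at first, 39.9 to 54.5 and 35.4 to 41.7 at inner, and 34.4 to 51.3 and 28.4 to 35.0 at last groups. Occupied groups also had the initiator letters less often, at 40.3% against 49.5% of empty ones.

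**Figure D5:**
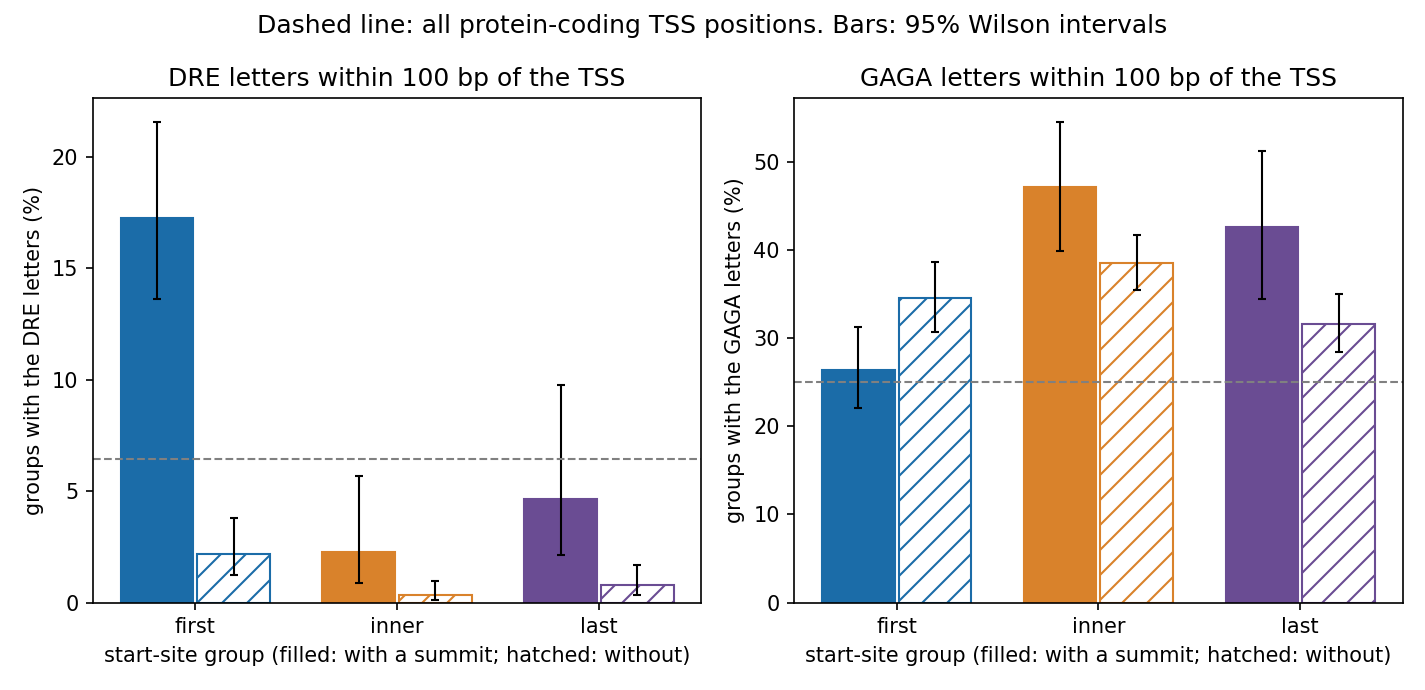
Percent of start-site groups with DRE letters (left) or GAGA letters (right) within 100 bp of the TSS, for first, inner and last groups with a summit (filled) and without (hatched); lines are 95% Wilson intervals and the dashed line all protein-coding TSS positions. DRE letters stand at 17.2% of occupied first groups, against 2.18% of empty ones, while GAGA letters are most frequent at occupied inner groups, at 47.2%.

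Sites with DRE letters carried more signal. Their median pooled signal was 216, against 95.7 at the 475 sites without them, with 125 and 56.4 in the first replicate column and 106 and 42.3 in the second. At first positions alone the medians were 262 with and 105 without. Among first positions without DRE letters the signal was thus closer to that of inner ones without them, 93.1. CGATA gave 144 with and 86.7 without, and GAGA 97.0 with and 104 without. Of the 15 strongest sites, the window around the summit held DRE letters at Gp150, CkIalpha, Atpalpha, alph, ReepB and CG30389. At Atpalpha they lay downstream of the stretch printed above, which holds none.

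Set beside the other promoters of the series, these sites held fewer DRE and more GAGA letters. DRE letters stood at 10.2% of the 529 sites, against 20.5% of the 2062 sites at 1-strand promoters of genes with another layout and 27.8% of the 1130 with TSSs on both strands. GAGA letters stood at 40.5%, against 24.8% and 15.1%. At the 1032 sites with no protein-coding TSS within 500 bp the shares were 4.26% and 37.4%. The first positions alone, with 19.7% and 29.6%, were near the 1-strand promoters of other layout. None of these differences was tested, since sites are not replicates.

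Signal and repeatability had the same order among the promoter kinds as the DRE letters. The median pooled signal was 101 at the 529 sites, 114 at 1-strand promoters of other layout, 130 at those with TSSs on both strands and 79.9 away from protein-coding TSSs. A peak in both replicates' own lists was overlapped by 54.4% of the 529 sites, against 62.0%, 70.0% and 37.0%. At the 529 sites 475 (89.8%) differed by less than 2-fold between the replicate columns, and the first column was higher in 396. The columns correlated across these sites with a Spearman rho of 0.684 and a Pearson r of 0.813 on the log2 scale. These are values across sites that were selected for similar ranks in both replicates. Summits within 100 bp of the TSS made up 65.2%, against 76.2% and 88.8% at the other promoter kinds. On the large chromosome arms 91 to 114 of the sites were found, and 21.4% to 24.5% of the start-site groups had a summit, while chromosome 4 had 6 sites and a summit at 10.9% of its 46 groups.

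Lists of known regulators were set beside all genes of this layout. Across 11 gene lists, 33 of the 62 genes with this layout (53.2%) had at least 1 of the 529 sites, against the 42.5% of all such genes. Of their 50 sites 12 were at first, 25 at inner and 13 at last positions, against 203, 228 and 98 of the 529 sites. The lists were chosen with earlier results known and are small, and nothing particular to a list is read from its count.

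Of the nuclear receptor and ecdysone genes 5 of 10 had a site, and 6 of their 8 sites were at inner starts. The orphan receptor gene ftz-f1 had 356 at its first start (249 and 105 in the replicates), and svp, the fly COUP-TF, 272 (158 and 111) at an inner one. EcR, the ecdysone receptor gene, had 86.5 and 149 at groups 2 and 3 of 3 and none at the first. Blimp-1 and br had no summit. Among BTB zinc-finger genes 1 of 7 had sites, the gene lola, whose many transcripts encode different zinc fingers, with 191 and 121 at inner starts and a low overlapping peak, and ab and br had none.

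All 4 Ets, AP-1 and EGFR pathway genes with this layout had sites. Beside bun they included kay, the fly Fos gene, with 108 and 127 at inner starts, and the Ets factor gene pnt with 125 at its last start. The Hox genes abd-A and Abd-B had 216 (103 and 121) at the first start and 63.5 (40.5 and 29.0) at the last of 6, and Antp had no summit. Of the Wnt, Notch and Hippo genes 4 of 6 had sites. The TCF gene pan had 361 (195 and 173) and the corepressor gene gro 228 (144 and 77.5), each at the first start, and the Notch coactivator gene mam had 107 and 157 at later ones. arm and sgg had none.

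Of the RNA-binding and splicing genes 6 of 9 had a site. After heph came pum, the translational repressor, with 144 (79.5 and 57.5) at its last start and Sxl, the switch gene of sex determination, with 93.2 (58.2 and 33.6) at its first. bru1 and fne had none. Cytoskeleton and polarity genes gave 4 of 9. The scaffold gene dlg1 had 98.6 at its first start and 195 at the fifth of 7 positions, and the spectrin gene kst 114 at its first. A summit at Tm1, aPKC and pod1 lay at places with TSSs on both strands, and par-1 and Tm2 had none.

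The chromatin genes ph-p, of the Polycomb group, and nej, the CBP acetyltransferase gene, had 74.6 and 64.5 at later starts, as 2 of 3, and at Asx the summit was at a place with TSSs on both strands. The cell cycle genes gave 3 of 3. E2f1 had 263 (155 and 106) at its first start, its partner Dp 118 (45.6 and 60.2) at its last and CycE 67.4 (37.2 and 33.2) at an inner one. Of the 2 growth genes Pdk1, a kinase of the insulin pathway, had 115 at its first and 62.3 at its second start, and InR had none. Ion channel and synapse genes gave 1 of 7, the active zone gene brp with 105 (45.3 and 56.5) at its first start, and cac and para had no summit.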

How the data were processed

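The authors deposited peak lists for 2 biological replicates and for their comparison by irreproducible discovery rate (IDR), called on dm6 against a control alignment per the deposited README text. Aligner, peak caller and their versions: not given in the sources used here. In the deposited lists, signal is the enrichment value of a peak, a score column gives the summit's distance from the peak start, and the ranked list gives the −log10 of the IDR and the signal in each replicate. Its 2 replicate columns could not be assigned to replicate numbers. The conservative list at an IDR of at most 0.01 was used, and each peak was matched to the ranked list for its replicate signals.

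TSSs of protein-coding genes came from Ensembl release 115. All peaks lay within the lengths of the 7 chromosomes of the reference. Motifs were searched as exact letters on both strands in 201 bp windows of the RefSeq Release 6 genome. Assignment was tested on simulated data: 300 of 300 planted summits returned to their start site. The work used Matplotlib 3.10.9, SciPy 1.17.1, pandas 2.3.3 and NumPy 2.4.6 under Python 3.11.15.

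The sites, lists and motifs were chosen with earlier results of these data known. Named were the 15 strongest sites, the 5 strongest of each class and the 8 genes with most occupied groups (ties by signal). Further named were the 5 genes with the largest difference in each direction and the extremes of TSS number and span. From each list came the 3 strongest and the first 2 empty genes. Sequences were 3 per class, from sites outside chromosome arm 2R with a motif in the window. Other genes were named after their values were seen, as examples of the rule's limits or of empty first groups. Of the listed names, E78 and phl were matched as Eip78C and Raf, and Dl and Tor did not match. Alternatives were another peak set, other IDR thresholds, merged peaks, single replicates, other distances, TSS numbers, spans, strand rules and group gaps, single signal columns and other motif windows.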

Additional observations from a re-analysis of the deposited data

How the results depend on the processing

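The sites and shares were recomputed under 20 alternatives, 1 of which, leaving out bbx, was chosen after seeing the data. Under all 20, first groups were occupied more often than inner and last groups, the median signal was higher at first than at inner and at last positions, and DRE letters were more frequent at first and GAGA letters at inner positions. Of 320 recomputed values 253 stayed within 1.5 times (counts), within the 95% Wilson interval (shares) or within the SD between replicate columns (ratios), and 67 did not. Part of this was fixed in advance. Group gaps cannot alter motif shares or signal medians, single signal columns cannot alter occupancy or motif shares, and motif windows can alter only motif shares. Occupancy here counted any summit near a TSS, so the strand rule cannot alter it. Occupancy by the 1-strand sites alone was not recomputed. Such unchanged values are counted among the 253 and in the statement on all 20 alternatives. The share of genes with the first group above the best other crossed 50%, and the order of first and inner shares of the sites changed, as given below. The cause was not tested.

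With each replicate left out in turn, the number of sites was 336 without replicate 1 and 566 without replicate 2. The shares at first, inner and last positions were 45.5%, 37.5% and 17.0% without replicate 1 and 40.8%, 40.8% and 18.4% without replicate 2. Occupied groups made up 30.6% (first), 9.16% (inner) and 8.80% (last) without replicate 1, and 40.8%, 16.2% and 15.5% without replicate 2. The ratio of median signals, first over inner, ran from 1.18 to 1.498 and first over last from 1.28 to 1.51. The first group was above the best other in 44.4% of 27 genes without replicate 1 and in 59.4% of 69 genes without replicate 2. Shares of first and inner positions ran from 17.3% to 24.8% and 4.33% to 5.56% for DRE letters and from 23.5% to 34.2% and 49.2% to 51.1% for GAGA letters. List genes with a site made up 41.9% to 53.2%.

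The number of sites was 308 at an IDR of at most 0.001, 822 with 2 or more and 288 with 4 or more TSS positions, and 346 with a span over 5 kb. The share at first positions was 46.1% at that IDR, 44.0% within 200 bp, 48.1% with 2 or more and 30.2% with 4 or more TSS positions, and 43.6% with both strands allowed. The inner share was 37.3% at that IDR, 27.7% with 2 or more and 50.7% with 4 or more TSS positions, and the last share 15.2% within 200 bp and 24.2% with 2 or more TSS positions. Occupied first, inner and last groups made up 45.4%, 21.0% and 18.0% in the other thresholded set, 28.4%, 7.80% and 7.91% at an IDR of at most 0.001, 47.4%, 22.8% and 20.6% at 0.05, 33.2%, 13.3% and 11.6% within 200 bp, and 44.5%, 23.0% and 17.7% within 1000 bp. With a group gap of 100 bp the inner share was 20.4%. The inner share of sites, above the first in the 529, was below it at an IDR of at most 0.001, with 2 or more TSS positions, within 200 bp (40.8%), with both strands allowed (40.3%) and without replicate 1, and equal to it without replicate 2. Inner groups were less often occupied than last ones with 4 or more TSS positions (14.2% and 16.4%), and also for the IDR limit of 0.001. The first group was above the best other in 42.3% of 26 genes at an IDR of at most 0.001 and 49.1% of 108 genes at 0.05. With both strands allowed this share was 59.3% of 91 genes.

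The ratio of median signals, first over inner, was 1.27 and moved to 1.44 at an IDR of at most 0.001, 1.44 within 200 bp, 1.42 with 4 or more TSS positions, 1.42 with both strands allowed and 1.40 in the second replicate column. First over last was 1.35 and moved to 1.26 in the other thresholded set, 1.39 at an IDR of at most 0.001, 1.43 at 0.05, 1.29 with merged peaks, 1.59 within 200 bp, 1.41 within 1000 bp, 1.32 with 2 or more and 1.57 with 4 or more TSS positions, 1.41 with a span over 500 bp, 1.198 over 5 kb, 1.47 with both strands allowed, 1.32 in the first column of replicate signal and 1.29 in the second. DRE letters at first positions reached 26.1% at an IDR of at most 0.001 and at inner ones 1.27% with a span over 5 kb. GAGA letters in 50 bp windows stood at 17.2% of first and 25.9% of inner positions. At an IDR of at most 0.05, 66.1% of list genes had a site. No paired analysis was possible because all samples belong to 1 group. Depth was not known, so weak sites that were missed cannot be told from empty starts.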
